A study of Mus musculus with 8 samples.

Results

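The collagen chains are the products of the genes whose symbols have the form Col, a type number, the letter a and a chain number. Every probe set that names 1 such gene was taken, and the probe set brightest on average over the 8 arrays stood for its gene. This gave 42 collagen genes, measured by 82 probe sets, of 18194 genes on the array. Of the 42, 24 passed a filter on mean signal (above the 40th percentile of genes, which is a mean signal of at least 68) and were tested, and 18 fell below it. By structure, 11 of the 42 genes encode fibrillar chains, 9 basement membrane chains, 9 fibril-associated chains and 13 other chains (beaded filament, short-chain network and transmembrane collagens).

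RNA of mouse yolk sac at embryonic day 9.5 was measured in 4 groups of 2 arrays. EC-N1ICD yolk sacs carried a Tie2 transgene (Tie2 Tg/0) and 1 ROSA allele from which the intracellular domain of Notch1 is made after Cre recombination (ROSA +/N1ICD), and their wild type carried neither (Tie2 0/0; ROSA +/+), with C57BL6 given as the strain of both groups. EC-Rbpj-KO yolk sacs were Tie2-Cre; Rbpj flox/flox on a mixed strain, and lose the exons for the DNA-binding domain of Rbpj, the transcription factor through which activated Notch receptors act. The wild type of the EC-Rbpj-KO set, also of mixed strain, is called so by its source name, with no genotype given. Tie2-Cre acts in endothelial and blood cells, whereas the arrays held RNA of the whole yolk sac, so that fewer cells of a type and less RNA per cell cannot be told apart. Each model was set against its own wild type group, since the strains given for the sets differ.

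Collagens are proteins of 3 chains wound into a triple helix, named by type and chain. Fibrillar collagens such as types I, III and V form the tensile fibrils of mesenchyme, type IV collagen forms the network of the basement membranes on which endothelium and endoderm rest, and fibril-associated collagens such as types IX and XIV bind to the surface of fibrils and have interrupted helices. In the yolk sac the mesoderm between the endodermal and mesothelial layers holds the blood vessels in such a matrix, and its chains are made by several cell types.

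The values are linear MAS5 signals, and the median signal of an array lay between 38 and 51, so single signals near these levels are close to background. Rbpj read 470 and 497 in EC-Rbpj-KO (wild type 984 and 919) (log2 change -0.98, limma adjusted p = 0.00866), and the Notch target Hey1 was 2.51-fold higher in EC-N1ICD (adjusted p = 0.0364). In EC-Rbpj-KO Hey1 hardly moved, with 66 and 69 (wild type 72 and 70), a log2 change of -0.07 (adjusted p = 0.906). Xist and Eif2s3y signals placed both EC-N1ICD arrays and EC-Rbpj-KO replicate 1 as female and the other 5 arrays as male, so sex and genotype cannot be told apart within the EC-N1ICD set. The ratio of 3′ to 5′ Actb signal, a sign of RNA quality, was 1.72 and 1.75 in EC-N1ICD (wild type 2.1 and 2.34), whereas EC-Rbpj-KO gave 2.29 and 2.09 (wild type 1.9 and 1.84). For Gapdh it was 2.43 and 2.48 in EC-N1ICD (wild type 3.12 and 2.76), and 4.64 and 3.45 in EC-Rbpj-KO (wild type 3.17 and 3.51), so that EC-Rbpj-KO replicate 1 was the highest of the 8 arrays. In each set the array titles give mutant replicate 2 and both wild type arrays 1 shared first number and mutant replicate 1 another, and what this number stands for is not stated. Of the visceral endoderm markers, which are typical of yolk sac, all 7 passed the filter, whereas of 6 endothelial markers Pecam1 and Emcn fell below it. The part of sex and RNA quality in the changes given here was not tested beyond the fits named.

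The upstream sequences of the chains on which the results turn are printed first, since the models alter Rbpj, whose recognition sequence holds the letters TGGGAA. RefSeq windows of 300 bases around the gene start (build GRCm38.p6) matched 33 of the 42 collagen genes by gene identifier. Col14a1 and Col9a3 are among the 9 without one. The 250 bases before the start are shown for both chains of type IX collagen that have a window (for Col9a1, 1 of 2 starts), for Col13a1 and for Col8a1, each 5′ to 3′ on the strand of the gene, with TGGGAA or its reverse complement TTCCCA in capitals.
Col9a2, chr4:121039316-121039565, plus strand: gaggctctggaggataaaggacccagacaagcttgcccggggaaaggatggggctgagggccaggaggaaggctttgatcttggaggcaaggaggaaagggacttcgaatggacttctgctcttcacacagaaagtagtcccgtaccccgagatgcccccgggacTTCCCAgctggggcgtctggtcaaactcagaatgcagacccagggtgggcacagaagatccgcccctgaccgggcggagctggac
Col9a1, chr1:24177360-24177609, plus strand: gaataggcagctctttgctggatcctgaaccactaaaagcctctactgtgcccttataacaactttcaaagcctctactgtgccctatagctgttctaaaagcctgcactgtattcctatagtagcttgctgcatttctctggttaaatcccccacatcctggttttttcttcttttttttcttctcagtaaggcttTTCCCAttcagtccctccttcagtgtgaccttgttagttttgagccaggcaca
Col13a1, chr10:61979109-61979358, minus strand: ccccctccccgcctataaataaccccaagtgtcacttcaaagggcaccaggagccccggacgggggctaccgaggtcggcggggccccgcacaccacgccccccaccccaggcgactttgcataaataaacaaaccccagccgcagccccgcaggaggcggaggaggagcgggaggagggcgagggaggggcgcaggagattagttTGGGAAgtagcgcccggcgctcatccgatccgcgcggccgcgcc
Col8a1, chr16:57754738-57754987, minus strand: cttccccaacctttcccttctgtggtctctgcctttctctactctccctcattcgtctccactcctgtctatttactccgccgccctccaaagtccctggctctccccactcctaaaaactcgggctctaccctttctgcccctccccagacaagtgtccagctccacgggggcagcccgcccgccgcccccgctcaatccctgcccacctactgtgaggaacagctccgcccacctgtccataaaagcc

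TGGGAA was found on either strand in 10 of 33 collagen genes (30.3%), or 10 of their 36 windows, and in 25.6% of the 32851 windows of all genes. In the printed windows its first base on the gene's strand lay at -85 for Col9a2, -53 for Col9a1 and -44 for Col13a1, and the Col8a1 window held no match. Each match of the longer form GTGGGAA also counts as a TGGGAA match. GTGGGAA was found in 2 of 33 collagen genes (Col10a1 and Col4a5, 6.06%), or 2 of their 36 windows, and in 6.38% of all windows. The share among collagen genes was thus close to that among all windows for both forms, and a match is a run of letters, not a bound site. The windows of Col4a1 and Col4a2, which are transcribed away from each other, shared 78 bases, and the starts of Col4a5 and Col4a6 lay 1343 bases apart.

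One chain changed in opposite directions in the models. Col14a1, which encodes type XIV collagen, a chain that binds to the surface of fibrils, rose in EC-N1ICD and fell in EC-Rbpj-KO. It was the only collagen gene called in EC-N1ICD, 1 of 24 against 0.596% of the 10913 genes tested. In EC-Rbpj-KO, 3 of 24 collagen genes were called against 4.96% of all genes tested. Col9a2, a type IX chain, rose, and Col14a1 and Col13a1, which encodes a transmembrane collagen, fell. Col9a2 was above the filter only through its EC-Rbpj-KO signals, so its place among the 3 is no support for the count. At an unadjusted p under 0.05 there were 7 of 24 collagen genes for EC-N1ICD (29.2%, against 12% of all genes tested) and 8 of 24 for EC-Rbpj-KO (33.3%, against 19.9%). The 8 include Col9a2 and Col2a1, both above the filter only through their EC-Rbpj-KO signals, so this share is no support either. With 2 arrays per group an exact permutation test can give no p under 0.333, so the calls rest on the variance that limma shares across genes.

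**Figure D1:**
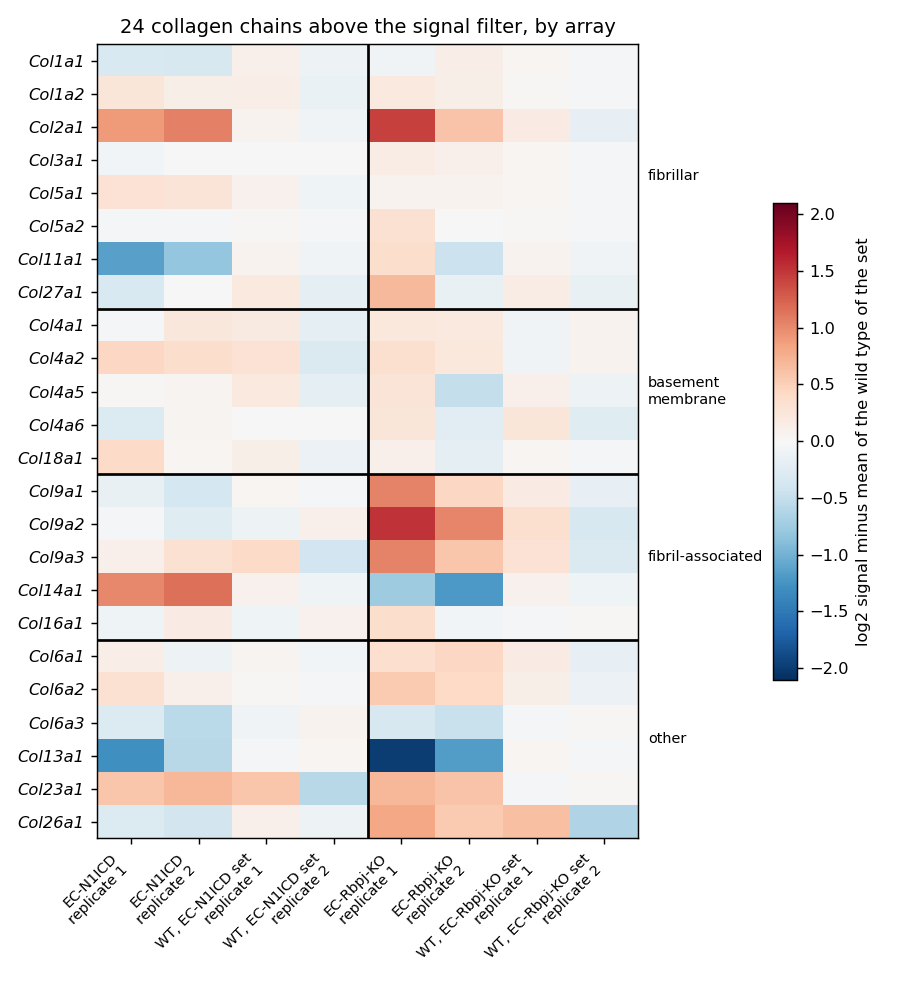
Heat map of the 24 collagen chains above the signal filter (rows, by type) on the 8 arrays (columns), coloured by log2 signal minus the mean of both wild type arrays of the same set. Col14a1 is red on both EC-N1ICD arrays and blue on both EC-Rbpj-KO arrays, the 3 type IX chains are red on both EC-Rbpj-KO arrays, and most other rows are pale.

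Signals of Col14a1 were 857 and 953 in EC-N1ICD (wild type 452 and 403). In EC-Rbpj-KO they were 258 and 187 (wild type 463 and 406). Both EC-N1ICD arrays lay above and both EC-Rbpj-KO arrays below all 4 wild type arrays, whose mean levels differed by 1.02-fold between the sets. The change was 2.12-fold in EC-N1ICD (log2 1.08, SE 0.19, n = 2 per group, limma adjusted p = 0.0337) and 0.507-fold in EC-Rbpj-KO (log2 -0.98, SE 0.19, adjusted p = 0.0161). The difference between the models was 2.06 on the log2 scale (95% interval 1.46 to 2.67, adjusted p = 0.0185), and Col14a1 was the only collagen gene among the 0.266% of genes called for that difference. The study picked this gene for these opposite directions from the same samples, so its direction is not independent evidence.

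The call of Col14a1 in EC-N1ICD was lost when any 1 of the 4 arrays of its set was left out (log2 1.0 to 1.17, lowest adjusted p 0.121) and with sex in the fit (0.62, adjusted p = 0.406), and it missed the threshold narrowly without wild type replicate 2 of the other set (0.0501). That in EC-Rbpj-KO was lost without EC-Rbpj-KO replicate 2 (-0.75, adjusted p = 0.0675) and without wild type replicate 1 or 2 of its set (-0.89 and -1.08, adjusted p = 0.118 and 0.0762).

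Col14a1 has 3 probe sets, and they were examined one by one. The values above are those of the brightest, and with the mean of all 3 the changes were 0.81 (adjusted p = 0.112) in EC-N1ICD and -0.69 (adjusted p = 0.0701) in EC-Rbpj-KO. The second gave signals of 207 and 202 in EC-N1ICD (wild type 113 and 138), and of 87 and 71 in EC-Rbpj-KO (wild type 161 and 147). Its arrays also did not overlap between mutant and wild type in either set. In a limma fit on all 17839 probe sets above the same floor, its log2 change was 0.71 (SE 0.25, adjusted p = 0.244) in EC-N1ICD and -0.97 (SE 0.25, adjusted p = 0.0361) in EC-Rbpj-KO, and with no floor the latter adjusted p was 0.0781. In the same fit the brightest had an adjusted p of 0.0447 and 0.0192. The third lay near background, at 28 and 22 in EC-N1ICD (wild type 14 and 18) and between 13 and 19 in the EC-Rbpj-KO set.

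Col8a1 encodes a short-chain collagen of the matrix beneath endothelium and around smooth muscle, and its 3 probe sets did not give 1 answer. The brightest gave 52 and 57 in EC-N1ICD (wild type 49 and 42), and 27 and 42 in EC-Rbpj-KO (wild type 24 and 30). Its mean of 40.4 put Col8a1 below the filter, and its log2 changes were 0.26 and 0.33. The second gave 69 and 106 in EC-N1ICD (wild type 12 and 21), and 11 and 13 in EC-Rbpj-KO (wild type 12 and 10). The EC-N1ICD arrays alone rose above background with this probe set, by 5.39-fold over their wild type. In a limma fit on all probe sets with no floor its log2 change was 2.43 (SE 0.31, adjusted p = 0.00523) in EC-N1ICD and 0.13 (adjusted p = 0.919) in EC-Rbpj-KO. It passed in 9 of 14 alternatives chosen after seeing the data (log2 1.66 to 2.83), and not without a variance trend (adjusted p = 0.0537), with sex in the fit (0.178) or without wild type replicate 1 (0.18) or 2 (0.062), or with the first number of the titles as a block (0.648). The third stayed between 13 and 20 on all 8 arrays. The wild type signals of the second lie at background, so that its fold has no firm size, and the study named this gene from these samples. Col8a2, the partner chain of Col8a1, was below the filter as well.

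**Figure D2:**
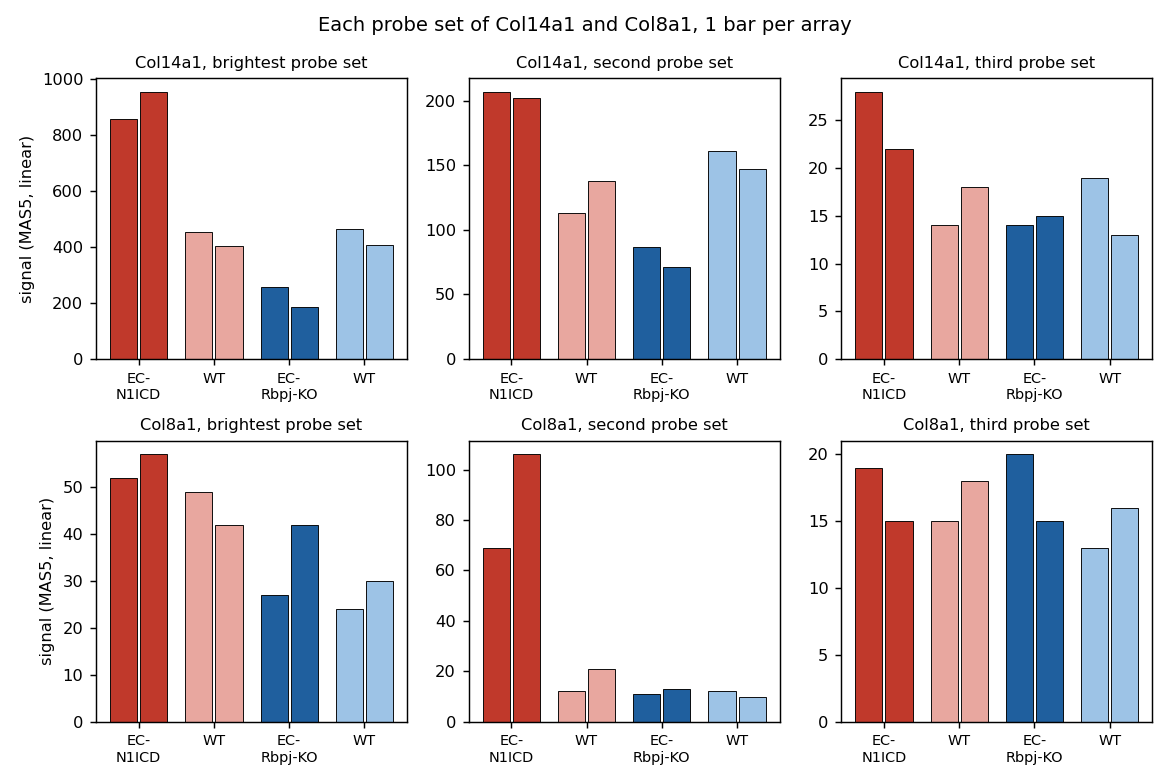
Signals (MAS5, linear axis from 0) of each probe set of Col14a1 (top) and Col8a1 (bottom), 1 bar per array and 2 per group, with each wild type (WT) beside its own mutant. The brightest and the second of Col14a1 lie above wild type in EC-N1ICD and below it in EC-Rbpj-KO, and of the Col8a1 probe sets the second stands out, with 69 and 106 in EC-N1ICD (wild type 12 and 21).

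The 3 chains of type IX collagen, which coats fibrils and is best known from cartilage, each read above both wild type arrays in both EC-Rbpj-KO samples. Col9a2 read 376 and 268 in EC-Rbpj-KO (wild type 165 and 104). Col9a1 had 1936 and 1270 (wild type 1056 and 829). Col9a3 had 304 and 220 (wild type 183 and 119). The groups did not overlap for any of the 3. Over all genes tested, both EC-Rbpj-KO arrays lay beyond both wild type arrays for 50.8%. EC-Rbpj-KO replicate 1, the female array with the highest Gapdh ratio (4.64), was the highest for each of the 3 chains. Without that array the log2 changes were 1.03 for Col9a2, 0.44 for Col9a1 and 0.58 for Col9a3, and none passed.

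The log2 change in EC-Rbpj-KO was 1.28 for Col9a2 (SE 0.31, 2.42-fold, limma adjusted p = 0.0388), the only 1 of the 3 that passed. It was 0.74 for Col9a1 (SE 0.21, adjusted p = 0.0716) and 0.81 for Col9a3 (SE 0.32, adjusted p = 0.191). A dimmer probe set of Col9a3 gave 181 and 140 (wild type 89 and 30) with a log2 change of 1.62 (adjusted p = 0.0793 with no floor). A dimmer one of Col9a1 gave 233 and 139 (wild type 149 and 114), a change of 0.47, where the groups overlapped.

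Without both EC-Rbpj-KO arrays the mean signal of Col9a2 was 66.2, under the floor of 67.9 and under the same percentile of the 6 other arrays (66.5), so it was tested only through the group in which it was high. With no filter its call was lost (1.28, adjusted p = 0.0609). The call held in 6 of 18 alternatives. Without wild type replicate 2 of its set the change was 0.94 (adjusted p = 0.315), without EC-Rbpj-KO replicate 1 it was 1.03 (0.141), and without wild type replicate 1 it was 1.61 (0.0577). It was also lost on leaving out any 1 array of the EC-N1ICD set, which alters only the shared variance (adjusted p 0.0503 to 0.053).

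In the EC-N1ICD set the type IX chains did not move together. Col9a1 had 505 and 435 (wild type 579 and 543), a log2 change of -0.26 (adjusted p = 0.725). Col9a2 lay at background in both groups, with 33 and 28 (wild type 31 and 36), and changed by -0.14. Col9a3 had 58 and 67 (wild type 71 and 41) and changed by 0.21. The difference between the models was -1.41 for Col9a2 (95% interval -2.37 to -0.45, adjusted p = 0.271) and -1.0 for Col9a1 (-1.66 to -0.34, adjusted p = 0.27), neither of which passed.

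Col16a1, the fifth tested fibril-associated chain, changed by 0.04 for EC-N1ICD and 0.15 for EC-Rbpj-KO (95% interval -0.32 to 0.62). The 5 tested chains of the 9 in this group had a median log2 change of 0.04 for EC-N1ICD and 0.74 for EC-Rbpj-KO, where the medians over all genes tested were 0.01 and -0.02. The 0.74 includes Col9a2, the largest rise of the 5, which was tested only through its EC-Rbpj-KO signals, so it overstates the group.

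**Figure D3:**
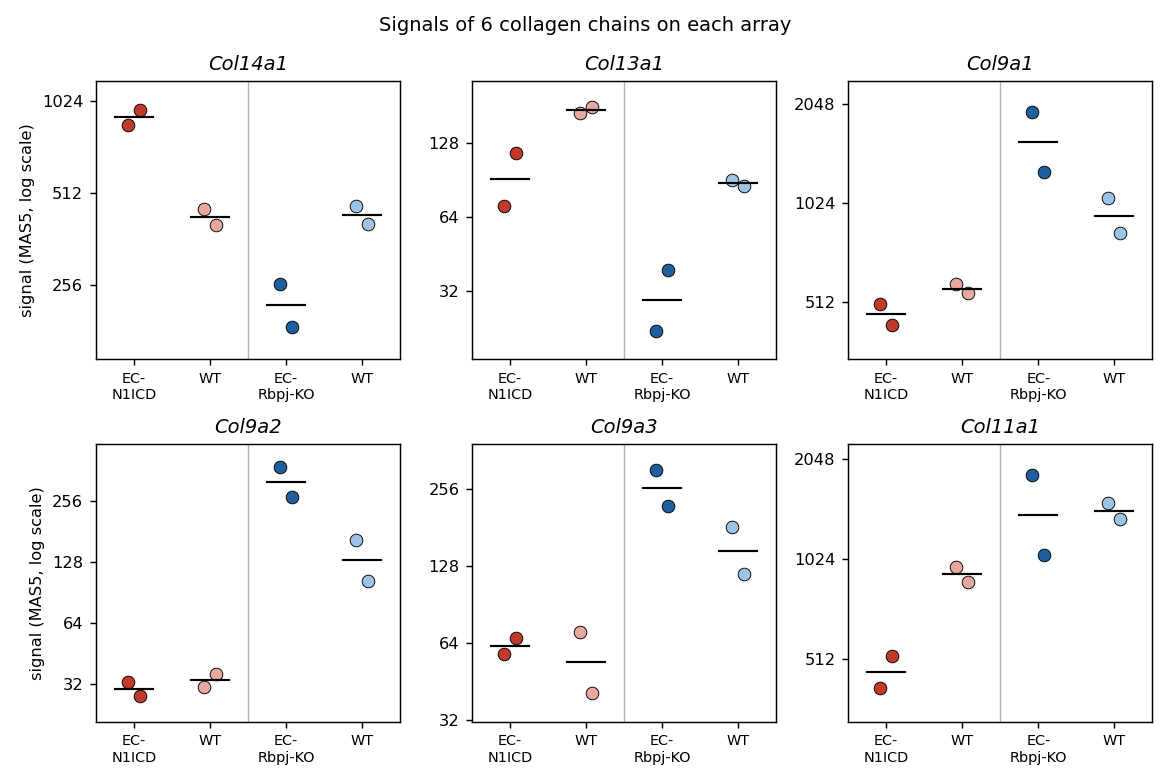
Signals (MAS5, log axis) of 6 collagen chains, 1 point per array, with a bar at the geometric mean of both arrays of a group and each wild type (WT) to the right of its mutant. Col14a1 moves up in EC-N1ICD and down in EC-Rbpj-KO, Col13a1 lies lower in both models, the 3 type IX chains lie higher in EC-Rbpj-KO than in wild type, and Col11a1 lies lower in EC-N1ICD.

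Col13a1, which encodes a transmembrane collagen found at cell junctions, has 1 probe set. Its signals were 22 and 39 in EC-Rbpj-KO (wild type 90 and 85), and 71 and 116 in EC-N1ICD (wild type 169 and 179). Both mutants lay below both of their wild type arrays. The fall in EC-Rbpj-KO was called (log2 -1.58, SE 0.34, 0.335-fold, limma adjusted p = 0.0227), and the value in EC-N1ICD did not pass (-0.94, SE 0.34, adjusted p = 0.27). The difference between the models was 0.64 (95% interval -0.41 to 1.69, adjusted p = 0.673). Both EC-Rbpj-KO signals lie below the median signal of their arrays (40 and 46), so that background limits the size of the fold, and with 16 added to each signal it was -1.18 (adjusted p = 0.0261). The call was lost without EC-Rbpj-KO replicate 1 (-1.17, adjusted p = 0.0749) and without wild type replicate 1 or 2 of its set (adjusted p = 0.111 and 0.117). The study listed this gene under possible upregulation during remodeling, with no fold given. That listing came from these samples, so it is not independent evidence.

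None of the fibrillar chains, of which 8 of 11 were tested, passed in either model, and the major chains of mesenchymal fibrils moved little. Col1a1 had signals of 1496 and 1489 in EC-N1ICD (wild type 2027 and 1740), and 1646 and 1903 in EC-Rbpj-KO (wild type 1776 and 1677). Its partner Col1a2 had 9775 and 8935 (wild type 9007 and 7493), and 17191 and 16247 (wild type 15169 and 14630). The log2 change of Col1a1 was -0.33 in EC-N1ICD (95% interval -0.65 to -0.02, adjusted p = 0.393) and 0.04 in EC-Rbpj-KO (-0.28 to 0.35), and that of Col1a2 was 0.19 (-0.03 to 0.40) and 0.17 (-0.05 to 0.38). A dimmer probe set of Col1a2 gave -0.28 in EC-N1ICD, the opposite sign.

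Col3a1, whose product forms fibrils of 3 like chains in soft tissue and vessel walls, had 11331 and 11746 in EC-N1ICD (wild type 11748 and 11841), and 16279 and 15699 in EC-Rbpj-KO (wild type 15087 and 14136). Its changes of -0.03 (95% interval -0.19 to 0.13) and 0.13 (-0.03 to 0.29) had the narrowest intervals of the 24 chains. The type V chains, which start and narrow fibrils, changed by 0.28 for Col5a1 (-0.02 to 0.59) and -0.04 for Col5a2 (-0.30 to 0.23) in EC-N1ICD, and by 0.08 and 0.16 in EC-Rbpj-KO. The median of the 8 fibrillar chains was -0.04 for EC-N1ICD and 0.15 for EC-Rbpj-KO.

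Fibrillar chains of types II and XI, best known with type IX from cartilage fibrils, gave the largest values of this group. Col2a1 had 78 and 87 in EC-N1ICD (wild type 44 and 40), and 182 and 102 in EC-Rbpj-KO (wild type 76 and 60). It was higher on both mutant arrays in each set, with log2 changes of 0.97 (SE 0.32, adjusted p = 0.224) and 1.01 (SE 0.32, adjusted p = 0.0988), and its wild type signals lie near background. Like Col9a2 it was above the filter only through its EC-Rbpj-KO signals (mean 64.2 without them), and the fibrillar medians include it.

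Col11a1 had 419 and 522 in EC-N1ICD (wild type 969 and 876), and 1844 and 1052 in EC-Rbpj-KO (wild type 1515 and 1357). The EC-N1ICD arrays were lower than both of their wild type arrays (log2 -0.98, 95% interval -1.49 to -0.46, adjusted p = 0.102), whereas the EC-Rbpj-KO arrays lay on either side of theirs (-0.04). The dimmer of its probe sets gave 389 and 296 in EC-N1ICD (wild type 500 and 535), a change of -0.61. The EC-N1ICD value of Col11a1 passed under 5 of 19 alternatives, among them median centring (-0.99, adjusted p = 0.0499) and sex in the fit (-1.79, adjusted p = 0.0417). The sex term rests on the EC-Rbpj-KO replicates alone (1844 and 1052), so it cannot separate sex from genotype in the EC-N1ICD set. Without EC-Rbpj-KO replicate 1 or 2, or with each set fitted alone, the change stayed at -0.98 and only the variance differed.

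Basement membrane chains, of which 5 of 9 were tested, gave no call in either model. Col4a1 and Col4a2 form the common heterotrimer of type IV collagen. Col4a1 had signals of 7687 and 9173 in EC-N1ICD (wild type 8871 and 6889), and 14671 and 14492 in EC-Rbpj-KO (wild type 11991 and 13153). Col4a2 had 2636 and 2521 (wild type 2406 and 1590), and 4323 and 4014 (wild type 3279 and 3601). In EC-Rbpj-KO both chains lay above both wild type arrays, by log2 0.22 (95% interval -0.06 to 0.49, adjusted p = 0.36) and 0.28 (-0.10 to 0.66, adjusted p = 0.401). In EC-N1ICD the changes were 0.10 (-0.17 to 0.37) and 0.40 (0.02 to 0.78, adjusted p = 0.393).

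Col18a1, which encodes the vascular basement membrane collagen from which endostatin is cut, had 2560 and 1995 in EC-N1ICD (wild type 2104 and 1775), and 2614 and 2136 in EC-Rbpj-KO (wild type 2489 and 2375). The groups overlapped in both sets, with changes of 0.23 (95% interval -0.13 to 0.58) and -0.04 (-0.40 to 0.32). The X-linked chains Col4a5 and Col4a6 changed by 0.04 and -0.11 in EC-N1ICD and by -0.12 and 0.01 in EC-Rbpj-KO. The median of the 5 chains was 0.10 for EC-N1ICD and 0.01 for EC-Rbpj-KO.

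Type VI collagen forms beaded filaments from 3 different chains, and the third chain differed in sign from the others in EC-Rbpj-KO. Col6a1 had 369 and 393 in EC-Rbpj-KO (wild type 328 and 257), and Col6a2 had 355 and 321 (wild type 262 and 222). Col6a3 had 507 and 461 (wild type 629 and 651), and 282 and 233 in EC-N1ICD (wild type 325 and 364). The EC-Rbpj-KO changes were 0.39 for Col6a1 (95% interval -0.04 to 0.82, adjusted p = 0.291), 0.49 for Col6a2 (0.08 to 0.89, adjusted p = 0.171) and -0.40 for Col6a3 (-0.79 to -0.02, adjusted p = 0.224). In EC-N1ICD they were 0.02, 0.21 and -0.42 (adjusted p = 0.358 for Col6a3). None of these passed, and Col6a3 was lower on both mutant arrays of each set.

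Col23a1, a transmembrane collagen, changed by 0.63 in EC-N1ICD (adjusted p = 0.491) and 0.65 in EC-Rbpj-KO (adjusted p = 0.292). Its wild type arrays of the EC-N1ICD set gave 133 and 59, so that the groups overlapped there, and in the EC-Rbpj-KO set it had 186 and 174 (wild type 112 and 117). Col26a1 and Col27a1 changed by -0.33 and -0.17 in EC-N1ICD and by 0.68 and 0.27 in EC-Rbpj-KO, without passing. The median of the 6 tested chains in the group of other collagens was -0.16 for EC-N1ICD and 0.44 for EC-Rbpj-KO.

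The 18 collagen genes below the filter were Col5a3, Col11a2 and Col24a1 of the fibrillar group, Col4a3, Col4a4, Col7a1 and Col15a1 of the basement membrane group, Col12a1, Col19a1, Col20a1 and Col22a1 of the fibril-associated group, and Col6a4, Col6a5, Col8a1, Col8a2, Col10a1, Col17a1 and Col25a1. Their single signals ran from 9 to 107 and their mean signals from 11 to 66.4. A chain could be below the filter because its probes are dim or because it is little expressed, and these cannot be told apart.

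**Figure D4:**
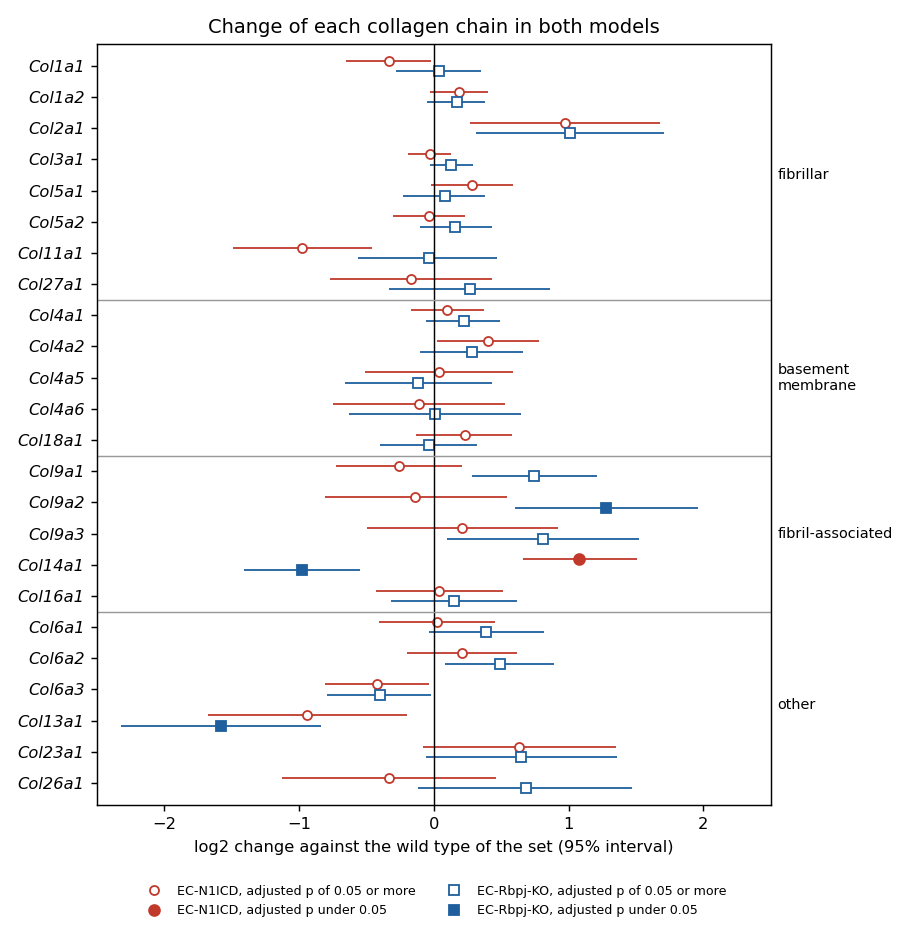
Log2 change against the wild type of the set, with 95% intervals from limma (2 arrays per group), for the 24 tested collagen chains by type, in EC-N1ICD (red circles) and EC-Rbpj-KO (blue squares), with filled symbols where the adjusted p was under 0.05. The filled symbols are Col14a1 in both models, on opposite sides of 0, and Col9a2 and Col13a1 in EC-Rbpj-KO.

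Over all 24 tested chains the median log2 change in EC-N1ICD was 0.03, with 13 chains higher and 11 lower. In EC-Rbpj-KO it was 0.16, with 18 higher and 6 lower, and it was 0.33 on replicate 1 and 0.11 on replicate 2. Both mutant arrays lay beyond both wild type arrays for 13 of 24 chains (54.2%) in EC-N1ICD, against 42.6% of all genes tested, and for 15 of 24 (62.5%) in EC-Rbpj-KO, against 50.8%. In the latter, 12 chains lay above and 3 below. The median of 0.16, the 18 higher, the 15 beyond and the 12 above include Col2a1 and Col9a2, which were above the filter only through their EC-Rbpj-KO signals. Taking both models by sign alone, 10 of the 24 chains were higher in both (41.7%, against 29.2% of all genes), 3 lower in both (12.5%, against 30.2%), 3 up with Notch1 activation and down with Rbpj loss (12.5%, against 23.1%) and 8 the reverse (33.3%, against 17.4%). Col2a1 is among the 10 and Col9a2 among the 8, so these shares are no support either. Most of these values lie within their error, so the counts describe signs only.

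The wild type arrays of both sets also differed in collagen signals. For 20 of 24 chains (83.3%) the wild type arrays of the sets did not overlap, against 69.9% of all genes tested, and 19 of these were higher in the EC-Rbpj-KO set. The median log2 difference (EC-Rbpj-KO set minus EC-N1ICD set) was 0.56 over the collagen chains and 0.17 over all genes tested. The top values were those of Col9a2, at 165 and 104 against 31 and 36 (3.92-fold), and Col9a3 (2.74-fold), whereas Col9a1, the other type IX chain, stood eighth (1.67-fold). Col13a1, at 90 and 85 against 169 and 179, was the only chain lower without overlap (0.503-fold), and Col14a1 hardly differed. Strain, cross and processing of the sets cannot be told apart here, so mutants were tested only against the wild type of their own set.

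Genes that process, crosslink or bind collagen were followed through a list of 42, of which 37 were on the array and 27 were tested. One passed in each model (3.7% of the 27, against 0.596% of all genes tested for EC-N1ICD and 4.96% for EC-Rbpj-KO, so the latter share is below the background), namely Ddr1, which encodes a receptor tyrosine kinase that binds collagen. Ddr1 had signals of 1975 and 1925 in EC-N1ICD (wild type 930 and 922), and 3726 and 4690 in EC-Rbpj-KO (wild type 2682 and 2041). It rose in both models, by log2 1.07 (SE 0.16, 2.11-fold, limma adjusted p = 0.0156) and 0.84 (SE 0.16, 1.79-fold, adjusted p = 0.0156). This rests on 1 of its 8 probe sets, the brightest, and the mean of all 8 gave 0.16 (adjusted p = 0.866) and 0.38 (adjusted p = 0.318). The others, by falling signal, gave 0.28, 0.59, -1.67, 0.02, -0.19, 0.08 and 1.08 in EC-N1ICD, none of them passing. In EC-Rbpj-KO they gave 0.89, 0.28, 0.25, -0.21, -0.09, 0.25 and 0.83, again without passing. The EC-N1ICD call was also lost on leaving out any 1 array of that set (lowest adjusted p 0.0627), and the EC-Rbpj-KO call on leaving out mutant replicate 2 (0.0678) or that set's wild type replicate 2 (0.167).

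No processing gene passed, and the median of the 22 tested was 0.07 for EC-N1ICD and 0.13 for EC-Rbpj-KO. P4ha2, a catalytic subunit of the prolyl hydroxylase that stabilises the triple helix, had 1304 and 1130 in EC-N1ICD (wild type 851 and 760), and 1470 and 1502 in EC-Rbpj-KO (wild type 1116 and 896). Its changes were 0.59 (adjusted p = 0.159) and 0.57 (adjusted p = 0.0725). P4ha1, the other main catalytic subunit, changed by 0.64 (adjusted p = 0.195) and 0.07, and P3h3, of the prolyl 3-hydroxylase family, by -0.03 and 0.58 (adjusted p = 0.186). The collagen receptor subunit Itga1 had 181 and 213 in EC-N1ICD (wild type 112 and 140), and 179 and 142 in EC-Rbpj-KO (wild type 99 and 90), with changes of 0.65 (adjusted p = 0.267) and 0.76 (adjusted p = 0.09).

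Markers of several yolk sac cell types moved with the models, and their part in the collagen changes was not tested. In EC-N1ICD, where Col14a1 rose, 5 of 6 tested smooth muscle and mesenchyme markers were higher and 2 of them passed, Tagln and Myl9, with summed signals of the list of 24113 to 26897 against 14829 to 15482. The cardiac muscle gene Actc1 passed too (log2 2.38), and all 5 tested erythroid markers were lower without passing (median -0.94, with summed signals of 46515 to 78072 against 88039 to 92945). In EC-Rbpj-KO the smooth muscle and mesenchyme list summed to 9212 to 9683 against 8108 to 8191, and 5 of its 6 tested members were higher without passing. The other tested member, Pdgfra, fell (log2 -0.83, limma adjusted p = 0.0436). Actc1 changed there by 0.07 and the erythroid markers by a median of -0.32 (summed signals 53268 to 64693 against 65330 to 66751), none of them passing. All 4 tested macrophage markers rose there and passed, with summed signals of the list of 2520 to 3249 against 722 to 1176. In EC-N1ICD all 4 were higher and 1 of them, Ly86, passed, with summed signals of 1270 to 1696 against 799 to 874.

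Parietal endoderm secretes a thick basement membrane, and of its 8 markers 7 were tested. In EC-N1ICD 5 were higher and 2 lower, and only the fall of Thbd passed (log2 -1.55). In EC-Rbpj-KO 3 were higher and 4 lower, and the rises of Plat (1.03) and Pth1r (0.93) passed. The signals of all 8 summed to 11637 to 12407 against 9643 to 11460 in the EC-N1ICD set. In the EC-Rbpj-KO set they summed to 13815 to 15484 against 12251 to 13098. Of the endothelial markers 4 of 6 were tested and none passed, with summed signals of the list of 1942 to 1953 against 1664 to 2341 and 1087 to 1512 against 1093 to 1157. Visceral endoderm markers summed to 139576 to 142456 against 138298 to 143682 in the EC-N1ICD set and to 135036 to 144281 against 144514 to 155015 in the EC-Rbpj-KO set, where Cubn fell (log2 -0.34). Decidua and trophoblast markers were represented by 2 of 5 genes, of which Prl8a2 was tested, without passing.

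**Figure D5:**
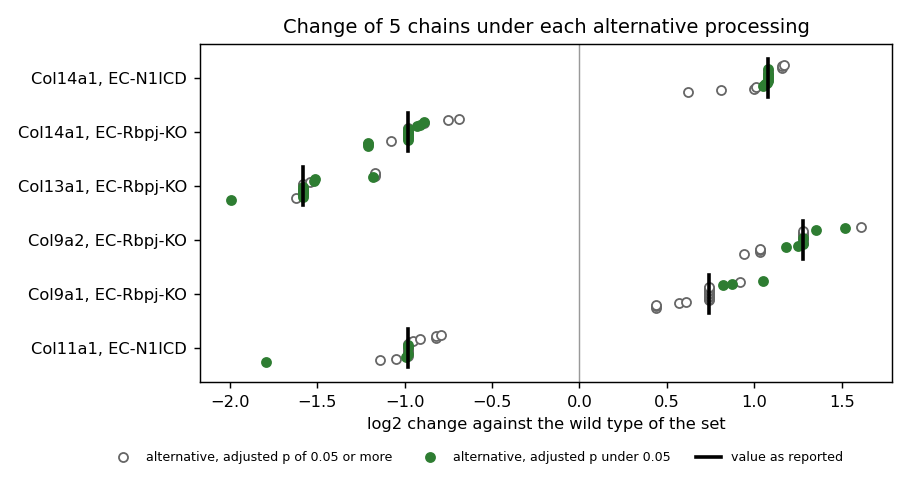
Log2 change against the wild type of the set for 5 collagen chains, as reported (black bar) and under each alternative processing (circles, filled where the adjusted p was under 0.05). Every value keeps its sign, whereas calls are lost or gained on every line, as for Col9a2 in EC-Rbpj-KO, between 0.94 and 1.61, with 6 of 18 alternatives past the threshold.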

How the data were processed

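Yolk sac RNA was hybridised to single-channel Affymetrix arrays, 8 in 4 groups of 2, grouped from source names, titles and genotypes. No source states in words that each array was a separate embryo, so p-values reflect the spread among these arrays. The EC-Rbpj-KO replicates differ in sex by Xist and Eif2s3y, so they are not the same embryo. In the other groups the spread may be technical. The deposited intensity values, 1 linear signal per probe set and array (7 to 36554), were made by the authors with MAS5 per the submitters' processing notes. The version and scaling target are not given in the sources used here, and no detection calls were used. The number of arrays limits precision. Of 45101 probe sets, 34958 name 1 gene in the array's annotation and were kept. The brightest probe set on average stood for each gene, and 10913 genes above the 40th percentile of mean signal were tested.

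All 4 groups were fitted together on log2 signals (R 4.3.3, limma 3.58.1, eBayes with trend, 4 residual and 7.37 prior degrees of freedom). P-values were two-sided and Benjamini-Hochberg adjusted over all genes tested at 0.05, with 95% intervals. Values of genes below the filter come from a fit without it. Both model comparisons were tested on simulated data with this limma fit. Alternatives changed the filter, an added constant, normalization, probe sets, variance trend, sex, a block, arrays in the fit, replicates and the test (the methods' t-test). Promoter windows were searched with Python 3.11.15 scripts, matched by gene identifier.

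Members and lists were chosen with earlier results of these data known. By rule the text names every called chain, Col14a1, Col8a1 and Col13a1, chains of heterotrimers, the 3 smallest p per type and model, and in the collagen pathway list called genes and the 4 smallest p. Other named probe sets, Col16a1, Col26a1, Col27a1, Col4a5, Col4a6 and the TGGGAA search were chosen after values were seen, or complete a group.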

Additional observations from a re-analysis of the deposited data

Results flagged for a closer look

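The change of Col14a1 differed between the models. It was 2.06 higher on the log2 scale in EC-N1ICD than in EC-Rbpj-KO (95% interval 1.46 to 2.67, limma adjusted p = 0.0185, mutant and wild type arrays not overlapping in either set, in opposite directions). The difference kept its sign in all 17 alternatives (1.5 to 2.37) and its adjusted p was under 0.05 in 11 of them, with a range of 0.00439 to 0.0979. Its second probe set gave 0.71 and -0.97. Both EC-N1ICD arrays and EC-Rbpj-KO replicate 1 are female and the wild type arrays male. With sex in the fit the difference was 1.83 (limma adjusted p = 0.0195). In that fit the change was 0.62 in EC-N1ICD (adjusted p = 0.406) and -1.21 in EC-Rbpj-KO (adjusted p = 0.0121). The sex term rests on the EC-Rbpj-KO replicates alone, so this fit cannot separate sex from genotype in the EC-N1ICD set.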

How the results depend on the processing

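In EC-N1ICD, where 1 collagen gene was called, 2 were called after median centring or with each set of 4 arrays fitted alone, and 0 with the mean of all probe sets, without a variance trend or by the methods' t-test, which called 0 of all genes (3 collagen genes at an unadjusted p under 0.05). With sex in the fit Col11a1 was called in place of Col14a1 and the collagen median was -0.12. The pathway list gave 0 with the mean of all probe sets, without a trend, with sex in the fit and by the t-test. In EC-Rbpj-KO, in place of 3 collagen genes, 1 was called with the filter at the 60th percentile or with sex in the fit, and 0 with each set fitted alone or by the t-test (2 at an unadjusted p under 0.05), where limma gave 3 in the fit reported. The pathway list gave 2 after median centring or quantile normalization and 0 with the mean of all probe sets, each set fitted alone or the t-test. For the difference between the models 0 collagen genes were called with the mean of all probe sets or without a trend, and 2 with sex in the fit.

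Leaving out each array in turn gave 0 to 2 collagen calls in EC-N1ICD, with 0 on leaving out any array of that set or wild type replicate 2 of the EC-Rbpj-KO set, and 2 without EC-Rbpj-KO replicate 1 or 2. It gave 0 to 4 in EC-Rbpj-KO, with 0 without either wild type array of that set, 1 without EC-Rbpj-KO replicate 1 and 4 without replicate 2. The pathway calls ran from 0 to 1 in each model, the collagen median from -0.05 to 0.06 in EC-N1ICD and from 0.11 to 0.33 in EC-Rbpj-KO, and the calls for the difference from 0 to 2. The left-out array's group then held 1 array, assumed to vary like the other groups. The causes of these shifts were not tested. Called changes of Col14a1, Col13a1, Col9a2 and Ddr1 kept their sign under every alternative that gave them a value. Of 33 chain and model pairs at an unadjusted p of 0.05 or more, 18 changed sign under at least 1 alternative and 0 passed. The sex term rests on EC-Rbpj-KO alone, since it is the only group with both sexes. Signals near background limit Col13a1, Col2a1, Col9a2 and Col8a1. No paired analysis was possible because no number in the titles is shared by 2 mutant and wild type pairs of a set. With the first number of the titles as a block, chosen after seeing the data, mutant replicate 1 of each set no longer bears on the change. Then 0 collagen genes were called in EC-N1ICD (Col14a1 1.16, adjusted p = 0.0816) and 1 in EC-Rbpj-KO, Col14a1 (-1.21, adjusted p = 0.0188), whereas Col13a1 (-1.17, adjusted p = 0.0852) and Col9a2 (1.03, adjusted p = 0.161) were lost. The pathway list gave 0 calls in EC-N1ICD (Ddr1 1.06, adjusted p = 0.0687).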
